A study of Mus musculus with 17 samples.

Results

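Transcript levels of 32 genes tied to haematopoietic stem cells were examined in 17 bone marrow RNA libraries. The genes were taken by symbol from the 47643 gene features of the table, and all 32 were found and passed the filter on low counts that left 19951 genes for testing. They comprise 10 transcription factors, 3 genes of chromatin, co-activation or RNA binding, 11 surface proteins and receptors, 3 genes of the angiopoietin pathway and 5 intracellular proteins. The cells were sorted from mouse marrow for the cKit receptor and against lymphoid and erythroid surface markers, a gate that holds stem cells among a larger number of committed progenitors.

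The compound mutants were UREΔ/+;Tet2-/- (URE het Tet2 KO, n = 3) and UREΔ/+;Tet2+/- (URE het Tet2 het, n = 2), and all 5 were labelled AML, acute myeloid leukaemia. The libraries labelled Normal were URE+/+;Tet2-/- (Tet2 KO, n = 3), URE+/+;Tet2+/- (Tet2 het, n = 3), UREΔ/+;Tet2+/+ (URE het, n = 3) and URE+/+;Tet2+/+ (WT, n = 3). The URE is the upstream regulatory element of Spi1, the gene of the myeloid transcription factor PU.1, and Tet2 encodes an enzyme that oxidizes methylcytosine. The series' text calls the controls age-matched; ages, the kind of Tet2 allele and whether libraries came from separate mice are not given in the sources used here, so p-values measure the spread between libraries only. Every AML library was a compound mutant and no compound mutant was labelled Normal, so leukaemia and the double lesion cannot be told apart.

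Haematopoietic stem cells renew themselves and give rise to all blood lineages, and they are rare in the marrow. Their identity depends on a set of transcription factors, among them Gata2, Tal1, Lmo2, Lyl1 and Erg, that bind together at shared enhancers. Surface proteins such as EPCR (Procr), CD150 (Slamf1), Sca-1 (Ly6a) and CD34 are used to sort them, and signals such as angiopoietin acting on its receptor Tie2 (Tek) are known to keep them in the niche and out of the cell cycle.

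The libraries held 21.1 to 38.3 M gene counts (M, mega), with a median of 32.2 M, and levels are given as CPM, counts per M gene counts after trimmed-mean scaling. At this depth 3 counts correspond to 0.0637 to 0.127 CPM in the AML libraries and 0.0858 to 0.149 CPM in the Normal libraries. Kit, the receptor used in the sort, stood at 117 to 170 CPM in AML and 100 to 187 CPM in Normal libraries. Spi1 stood at 98.6, 7.83 and 12.2 CPM in URE het Tet2 KO and 21.6 and 34.9 CPM in URE het Tet2 het libraries, against 45.3 to 137 CPM in Normal libraries. Tet2 stood at 112 to 234 CPM in AML and 80.2 to 176 CPM in Normal libraries. Counts cover whole genes and the URE is no part of a transcript, so these levels check neither allele. The 5 AML libraries differed widely among themselves, and the levels of the genes that the results turn on are given for each library.

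The promoters of 4 members follow, from 250 bases before to 50 bases after the annotated start, as RefSeq gives them on GRCm38.p6. They were chosen because Trpc6 and Tek are named in several of the comparisons below and because Tal1 and Pdzk1ip1 are neighbours on chromosome 4. Capitals mark the letters GAGGAA, the core recognized by PU.1, and AGATAA, letters recognized by GATA factors such as Gata2, on either strand.
Trpc6 (chr9:8543892-8544191, + strand): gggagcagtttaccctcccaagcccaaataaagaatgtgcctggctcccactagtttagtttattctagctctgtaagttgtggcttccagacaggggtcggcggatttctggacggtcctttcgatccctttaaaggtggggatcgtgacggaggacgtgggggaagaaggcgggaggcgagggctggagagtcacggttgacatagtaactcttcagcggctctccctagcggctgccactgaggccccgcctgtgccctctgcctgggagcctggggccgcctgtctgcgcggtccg
Tek (chr4:94739039-94739338, + strand): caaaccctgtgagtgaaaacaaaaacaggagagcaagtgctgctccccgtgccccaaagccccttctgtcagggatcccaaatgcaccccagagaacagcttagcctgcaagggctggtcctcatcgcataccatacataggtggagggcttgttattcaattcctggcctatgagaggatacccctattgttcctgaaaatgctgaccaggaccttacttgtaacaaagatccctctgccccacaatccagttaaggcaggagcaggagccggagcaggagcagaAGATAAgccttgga
Tal1 (chr4:115056176-115056475, + strand): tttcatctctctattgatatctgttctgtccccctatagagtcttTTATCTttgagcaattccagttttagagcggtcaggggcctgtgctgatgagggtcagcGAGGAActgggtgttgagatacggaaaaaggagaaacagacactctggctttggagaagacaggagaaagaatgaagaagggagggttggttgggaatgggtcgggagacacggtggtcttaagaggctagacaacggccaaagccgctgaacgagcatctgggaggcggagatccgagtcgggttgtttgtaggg
Pdzk1ip1 (chr4:115088458-115088757, + strand): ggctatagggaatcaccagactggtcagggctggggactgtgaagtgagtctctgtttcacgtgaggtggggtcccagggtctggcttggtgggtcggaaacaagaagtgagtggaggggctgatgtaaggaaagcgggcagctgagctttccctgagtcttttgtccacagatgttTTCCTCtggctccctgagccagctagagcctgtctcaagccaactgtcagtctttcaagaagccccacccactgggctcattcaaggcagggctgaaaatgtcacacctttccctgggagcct

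The Trpc6 window held neither set of letters, the Tek window 1 AGATAA, the Tal1 window 1 of each, and the Pdzk1ip1 window 1 GAGGAA. RefSeq gave 34 promoter entries for 25 of the 32 members. GAGGAA was found on either strand in 9 of the 34 entries (26.5%), against 28.3% of all 32851 promoters in the table. AGATAA was found in 3 of the 34 (8.82%), against 11.2% of all promoters. The E-box letters CAGNTG, which Tal1 and Lyl1 recognize with their partners, were found in 16 of the 34 (47.1%), against 51.4% of all promoters. Matches that overlapped another motif were counted for both, and a match describes letters and not a bound site.

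In AML against Normal, 19 of the 32 genes lay below all Normal libraries in 4 of the 5 AML libraries. In the remaining library, URE het Tet2 het replicate 2, 16 of these 19 were inside the Normal range and 3, Gata2, Mycn and Trpc6, above it. In edgeR's test over all genes 13 of the 32 members passed an adjusted p of 0.05, 12 lower and 1 higher in AML (40.6% of the members), where 11% of all genes tested passed, 4.02% lower and 6.94% higher. The median log2 fold change of the 32 members was -1.66, and that of all genes tested was 0.05. At an unadjusted p under 0.05, 24 members and 5252 of all genes passed. In bulk RNA, fewer cells of a type and less RNA per cell cannot be told apart. The heat map of all 32 genes shows the levels by library.

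**Figure D1:**
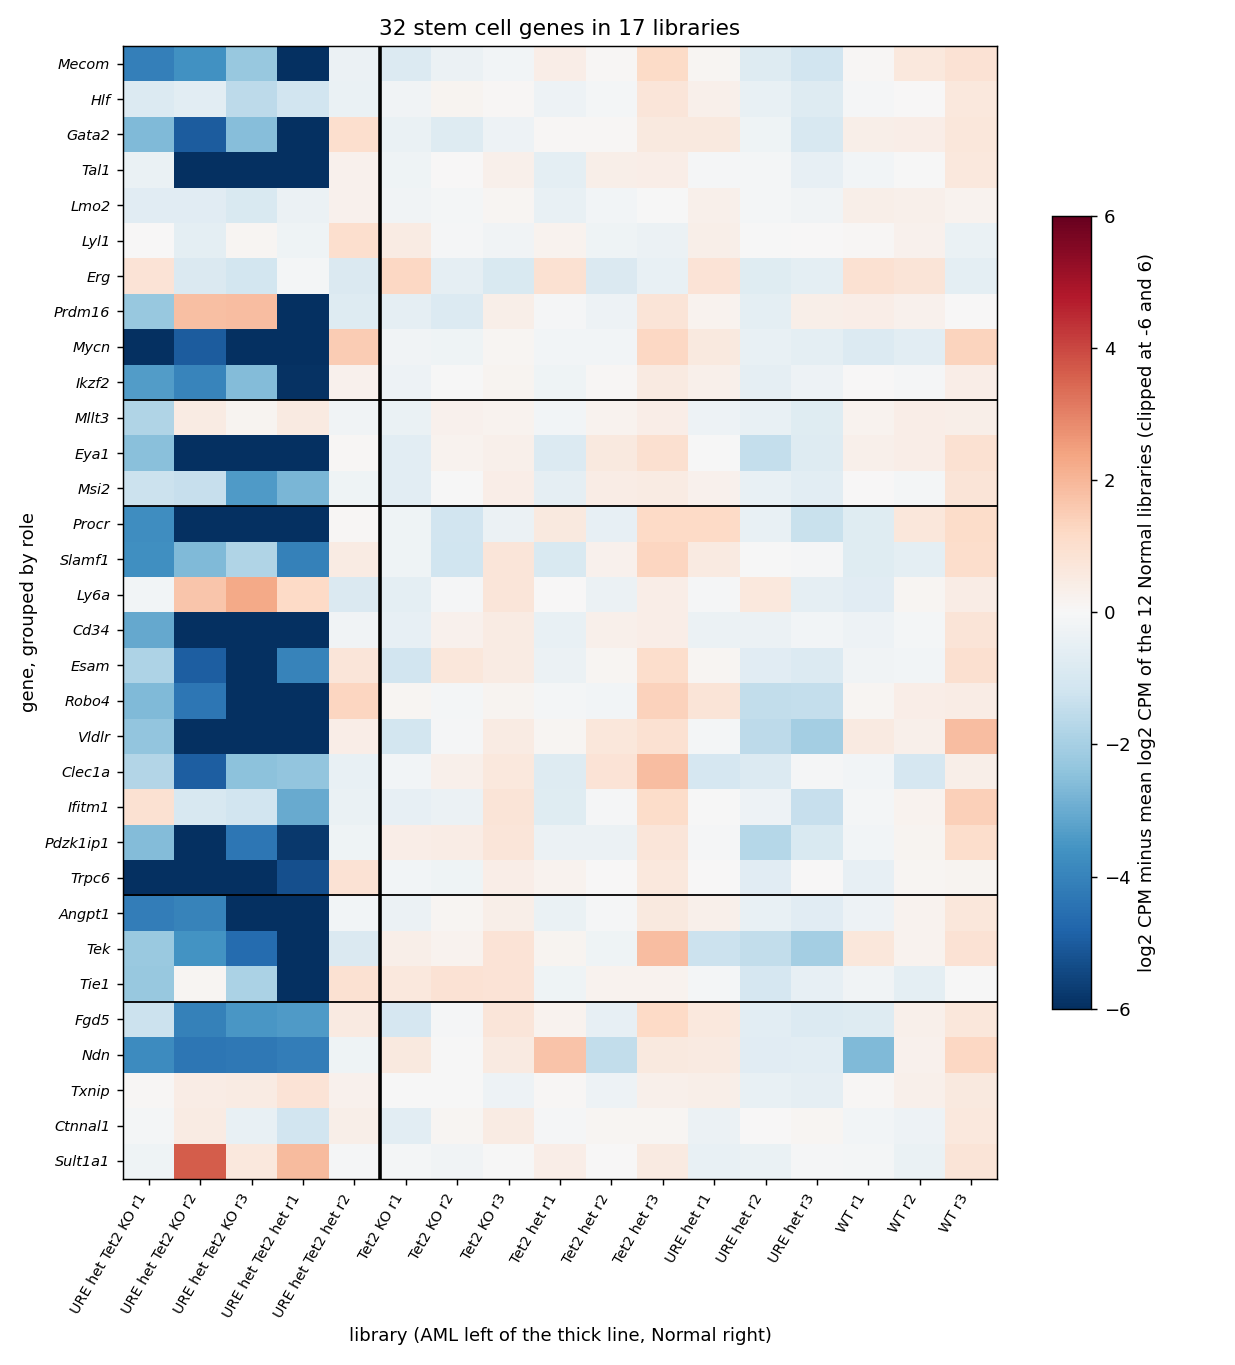
Level of each of the 32 genes (rows, grouped by role) in each of the 17 libraries (columns), as log2 CPM minus the mean log2 CPM of the 12 Normal libraries, clipped at -6 and 6. Blue cells fill most of the 4 leftmost columns, URE het Tet2 KO replicates 1 to 3 and URE het Tet2 het replicate 1, whereas the column of URE het Tet2 het replicate 2, with 1 gene below the Normal range and 5 above it, is paler.

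Each AML library was set singly against the range of the 12 Normal libraries. URE het Tet2 KO replicate 1 lay below that range in 24 of the 32 members and above it in 0, where 15.3% and 14.9% of all genes did so. URE het Tet2 KO replicate 2 lay below in 22 and above in 4 (all genes 22.0% and 22.7%), and URE het Tet2 KO replicate 3 below in 24 and above in 2 (18.5% and 20.9%). URE het Tet2 het replicate 1 lay below in 25 and above in 4 (21.6% and 21.5%). URE het Tet2 het replicate 2 lay below in 1, Ly6a, and above in 5, Gata2, Lyl1, Mycn, Trpc6 and Tie1 (15.2% and 20.5%).

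The median difference from the Normal mean over the members, on the log2 scale, was -2.24, -3.77 and -2.56 in URE het Tet2 KO replicates 1, 2 and 3, -4.72 in URE het Tet2 het replicate 1 and 0.06 in URE het Tet2 het replicate 2. Each Normal library set against the other 11 had a median between -0.65 and 0.74. All 5 AML libraries lay outside the Normal range on the same side in 0 of the 32 members, where 0.692% of all genes had all 5 below and 0.827% all 5 above. In 19 of the 32 (59.4%), 4 of the 5 AML libraries lay below all Normal libraries, where 5.58% of all genes had at least 4 below. In each of the 19 the library that did not was URE het Tet2 het replicate 2. At least 4 lay above in 0 members and in 4.59% of all genes. Of these 19 members 11 passed the test, and 8 did not (Gata2, Eya1, Slamf1, Cd34, Esam, Robo4, Vldlr and Fgd5).

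**Figure D2:**
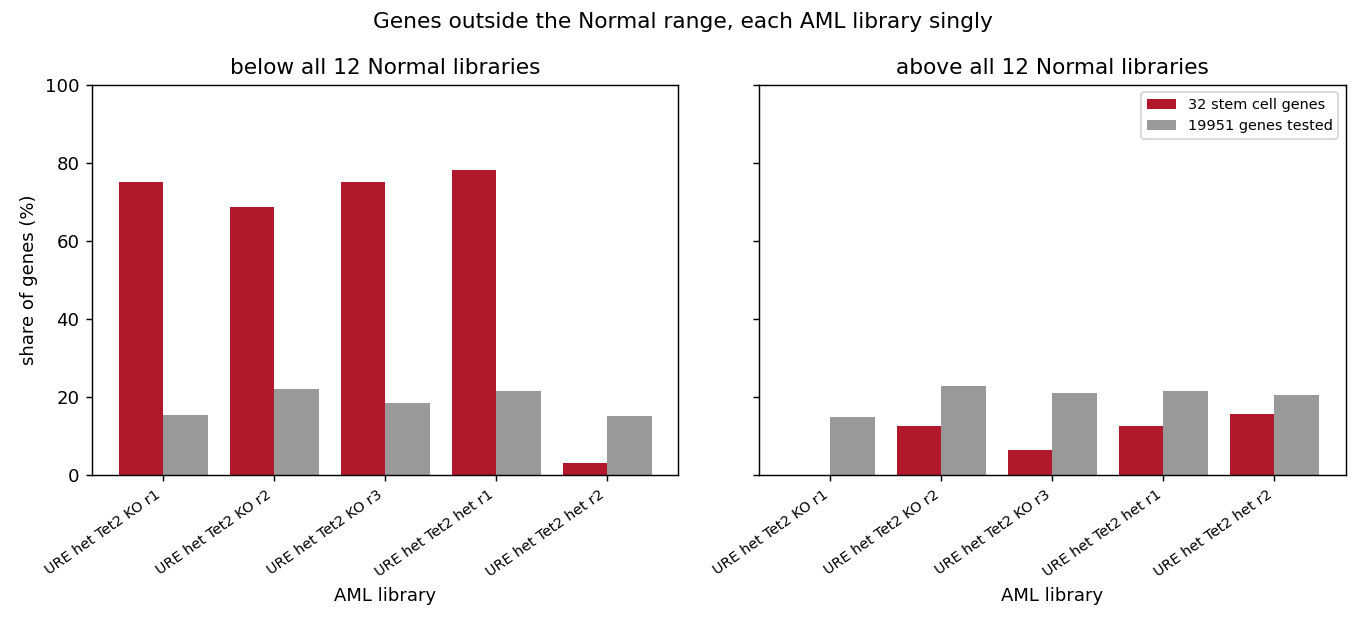
Share of genes below (left panel) and above (right panel) all 12 Normal libraries in each AML library, in percent, for the 32 stem cell genes (red) and all 19951 genes tested (grey). The red bars of the left panel lie between 68.8% and 78.1% in 4 libraries and at 3.13% in URE het Tet2 het replicate 2.

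Among the 10 transcription factors, Mecom, Hlf, Mycn and Ikzf2 fell in AML and 6 did not pass, with a median log2 fold change of -1.14. Mecom (ENSMUSG00000027684.16, chromosome 3, 29951296 to 30548008, GRCm38), a zinc finger factor that maintains stem cells, had 0.338, 0.487 and 1.27 CPM in URE het Tet2 KO and 0 and 4.82 CPM in URE het Tet2 het libraries. The 12 Normal libraries had 2.77 to 13.5 CPM with a median of 6.44. In 4 AML libraries the level was below every Normal library and in the remaining AML library inside their range. Its log2 fold change was -2.27 ± 0.68 (SE; edgeR adjusted p = 0.0445).

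Mycn, a MYC family factor needed with its relative Myc in stem cells, had 0, 0.0860 and 0.0302 CPM in URE het Tet2 KO and 0.0325 and 9.36 CPM in URE het Tet2 het libraries, against 1.82 to 8.04 CPM (median 2.79) in Normal libraries. In 4 AML libraries Mycn was nearly absent, and in URE het Tet2 het replicate 2 it was above every Normal library. Its log2 fold change was -2.94 ± 0.88 (adjusted p = 0.0443). Ikzf2, the Ikaros family factor Helios, had 3.13, 2.09 and 5.38 CPM in URE het Tet2 KO and 0.520 and 39.2 CPM in URE het Tet2 het libraries, against 22.1 to 47.4 CPM (median 32.5) in Normal libraries. It showed the same split as Mecom, with a log2 fold change of -1.97 ± 0.59 (adjusted p = 0.0444). Hlf, a leucine zipper factor that marks stem cells, had 20.1, 22.8 and 11.7 CPM in URE het Tet2 KO and 15.6 and 26.2 CPM in URE het Tet2 het libraries, against 20.7 to 57.3 CPM (median 34.2) in Normal libraries. For Hlf the groups were closer, with 3 AML libraries below the Normal range and 2 at its low end (log2 fold change -0.89 ± 0.25, adjusted p = 0.0316).

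The factors that act together at stem cell enhancers did not move as a block. Gata2, a zinc finger factor required in stem cells, had 0.930, 0.172 and 0.998 CPM in URE het Tet2 KO and 0 and 11.8 CPM in URE het Tet2 het libraries, against 3.0 to 9.32 CPM (median 6.11) in Normal libraries. Its log2 fold change of -1.57 ± 0.72 did not pass (adjusted p = 0.181), with 4 AML libraries below and 1 above all Normal libraries. Tal1, a basic helix-loop-helix factor that specifies blood stem cells, had 8.84, 0.143 and 0.0907 CPM in URE het Tet2 KO and 0.0650 and 13.9 CPM in URE het Tet2 het libraries, against 7.89 to 18.3 CPM (median 11.2) in Normal libraries. In 3 AML libraries Tal1 was close to 0 and in the other 2 it was within the Normal range, and its log2 fold change of -1.39 ± 0.89 did not pass (adjusted p = 0.345).

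Lmo2, a LIM protein that bridges Tal1 and GATA factors, had 51.0, 49.9 and 43.2 CPM in URE het Tet2 KO and 63.4 and 97.8 CPM in URE het Tet2 het libraries, against 59.2 to 102 CPM (median 77.7) in Normal libraries. The 3 URE het Tet2 KO libraries were below the Normal range, yet the log2 fold change of -0.38 ± 0.14 did not pass (adjusted p = 0.0907). Lyl1, the relative of Tal1, stood at 26.4 to 80.3 CPM in AML and 29.9 to 55.3 CPM in Normal libraries, and the ETS factor Erg at 39.9 to 150 CPM in AML and 46.2 to 205 CPM in Normal libraries. Their log2 fold changes were 0.18 ± 0.21 (adjusted p = 0.634) and -0.51 ± 0.46 (adjusted p = 0.535). Both also differed with the title numbers of the libraries, as given below. Prdm16, a zinc finger factor needed to maintain stem cells, had 0.465, 8.26 and 8.74 CPM in URE het Tet2 KO and 0 and 1.40 CPM in URE het Tet2 het libraries, against 1.33 to 4.01 CPM (median 2.59) in Normal libraries. For Prdm16, 2 AML libraries were above and 2 below all Normal libraries, and the log2 fold change was -0.27 ± 0.63 (adjusted p = 0.837).

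Of the 3 genes of chromatin, co-activation or RNA binding, Msi2 fell. Msi2 (chromosome 11, 88339382 to 88718513), an RNA-binding protein that sustains stem cell self-renewal, had 21.0, 19.9 and 4.87 CPM in URE het Tet2 KO and 7.71 and 42.9 CPM in URE het Tet2 het libraries, against 33.1 to 88.9 CPM (median 51.9) in Normal libraries. All but URE het Tet2 het replicate 2 were below the Normal range, and the log2 fold change was -1.46 ± 0.42 (adjusted p = 0.0369). Eya1, a transcriptional co-activator with phosphatase activity, had 1.23, 0.0287 and 0.0907 CPM in URE het Tet2 KO and 0.0325 and 7.35 CPM in URE het Tet2 het libraries, against 2.62 to 13.7 CPM (median 8.40) in Normal libraries. The split was that of Msi2, but the log2 fold change of -2.59 ± 0.83 did not pass (adjusted p = 0.0595). Mllt3, a chromatin reader known to sustain human stem cells in culture, was below the Normal range of 8.0 to 17.4 CPM in URE het Tet2 KO replicate 1 (3.81 CPM), above it in URE het Tet2 KO replicate 2 (18.5 CPM) and URE het Tet2 het replicate 1 (19.3 CPM), and inside it in the other 2 AML libraries. Its log2 fold change was 0.04 ± 0.27 (adjusted p = 0.950).

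Among the 11 surface proteins and receptors, Procr, Clec1a, Pdzk1ip1 and Trpc6 fell, 0 rose, and 9 of the 11 were below all Normal libraries in 4 of the 5 AML libraries (median log2 fold change -2.02). Trpc6 (ENSMUSG00000031997.8, chromosome 9, 8544142 to 8680741), a calcium-permeable cation channel, had 0 counts in each URE het Tet2 KO library and 0.0325 and 3.38 CPM in URE het Tet2 het libraries, against 1.16 to 2.86 CPM (median 1.90) in Normal libraries. It was thus undetected or at 1 count in 4 AML libraries and above every Normal library in URE het Tet2 het replicate 2. The fitted log2 fold change was -4.53 ± 0.94 (adjusted p = 0.0104); because a group is at 0 its size depends on the prior count, and from 3 counts over the URE het Tet2 KO group the level there was at least 58.9-fold lower than in Normal.

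Procr (chromosome 2, 155751117 to 155755471), the endothelial protein C receptor by which stem cells are purified, had 0.0846, 0 and 0 CPM in URE het Tet2 KO and 0 and 1.47 CPM in URE het Tet2 het libraries, against 0.549 to 3.26 CPM (median 1.14) in Normal libraries. Its log2 fold change was -3.50 ± 0.92 (adjusted p = 0.0246). Procr and Lmo2 both lie between 60 and 160 Mb of chromosome 2, as does Spi1. The median of 489 genes of that interval stood at 104%, 54.7% and 52.5% of its Normal level in URE het Tet2 KO replicates 1, 2 and 3 and at 53.0% and 93.4% in URE het Tet2 het replicates 1 and 2, against 96.8% to 105% in Normal libraries. The part of that interval's level in these values was not tested.

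Pdzk1ip1 (chromosome 4, 115088708 to 115093899), the membrane-associated protein MAP17, had 0.127, 0 and 0.0302 CPM in URE het Tet2 KO and 0 and 0.743 CPM in URE het Tet2 het libraries, against 0.266 to 1.85 CPM (median 0.929) in Normal libraries, and its log2 fold change was -2.77 ± 0.74 (adjusted p = 0.0265). It lies next to Tal1 (115056426 to 115071755), and the pair differed in URE het Tet2 KO replicate 1, where Pdzk1ip1 was below the Normal range and Tal1 inside it. Clec1a, a C-type lectin-like receptor, had 0.634, 0.0573 and 0.393 CPM in URE het Tet2 KO and 0.423 and 1.61 CPM in URE het Tet2 het libraries, against 1.10 to 8.18 CPM (median 2.05) in Normal libraries, a log2 fold change of -2.02 ± 0.54 (adjusted p = 0.0277).

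Cd34, a sialomucin carried by progenitors and, in the mouse, by only some stem cells, had 10.1, 0.545 and 0.393 CPM in URE het Tet2 KO and 0.0650 and 73.6 CPM in URE het Tet2 het libraries. The Normal libraries had 59.4 to 145 CPM with a median of 76.1. Although 4 AML libraries were far below every Normal library, the log2 fold change of -2.91 ± 0.97 did not pass (adjusted p = 0.0680).

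Esam (37528078 to 37538319) and Robo4 (37401897 to 37415115) both lie on chromosome 9. They encode an adhesion molecule and a guidance receptor shared by stem cells and endothelium. Esam had 0.338, 0.0287 and 0 CPM in URE het Tet2 KO and 0.0650 and 2.19 CPM in URE het Tet2 het libraries, against 0.573 to 2.72 CPM in Normal libraries (log2 fold change -1.98 ± 0.75, adjusted p = 0.105). Robo4 had 0.211, 0.0573 and 0 CPM in URE het Tet2 KO and 0 and 3.57 CPM in URE het Tet2 het libraries, against 0.498 to 3.72 CPM in Normal libraries (-2.02 ± 0.84, adjusted p = 0.139). Vldlr, a lipoprotein receptor, had 1.35, 0.0573 and 0.0605 CPM in URE het Tet2 KO and 0 and 9.64 CPM in URE het Tet2 het libraries, against 1.73 to 25.6 CPM in Normal libraries (-2.41 ± 0.90, adjusted p = 0.101). Slamf1, the stem cell marker CD150, had 0.0423, 0.115 and 0.212 CPM in URE het Tet2 KO and 0.0325 and 1.10 CPM in URE het Tet2 het libraries, against 0.333 to 1.92 CPM in Normal libraries (-1.70 ± 0.65, adjusted p = 0.109). In each of these 4 genes the same 4 AML libraries were below all Normal libraries, and 0 of the 4 passed the test.

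Ly6a and Ifitm1 did not share that split. Ly6a, the Sca-1 antigen of stem cells, had 6.55, 23.2 and 35.9 CPM in URE het Tet2 KO and 16.8 and 4.06 CPM in URE het Tet2 het libraries, against 4.54 to 12.1 CPM (median 7.22) in Normal libraries. In 3 AML libraries it was above every Normal library and in URE het Tet2 het replicate 2 below them all, and the log2 fold change of 0.98 ± 0.37 did not pass (adjusted p = 0.108). Ifitm1, an interferon-inducible membrane protein, stood at 2.37 to 36.5 CPM in AML and 7.56 to 52.2 CPM in Normal libraries (-0.77 ± 0.49, adjusted p = 0.341). Both belong to families of similar sequence whose reads the counting may divide.

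**Figure D3:**
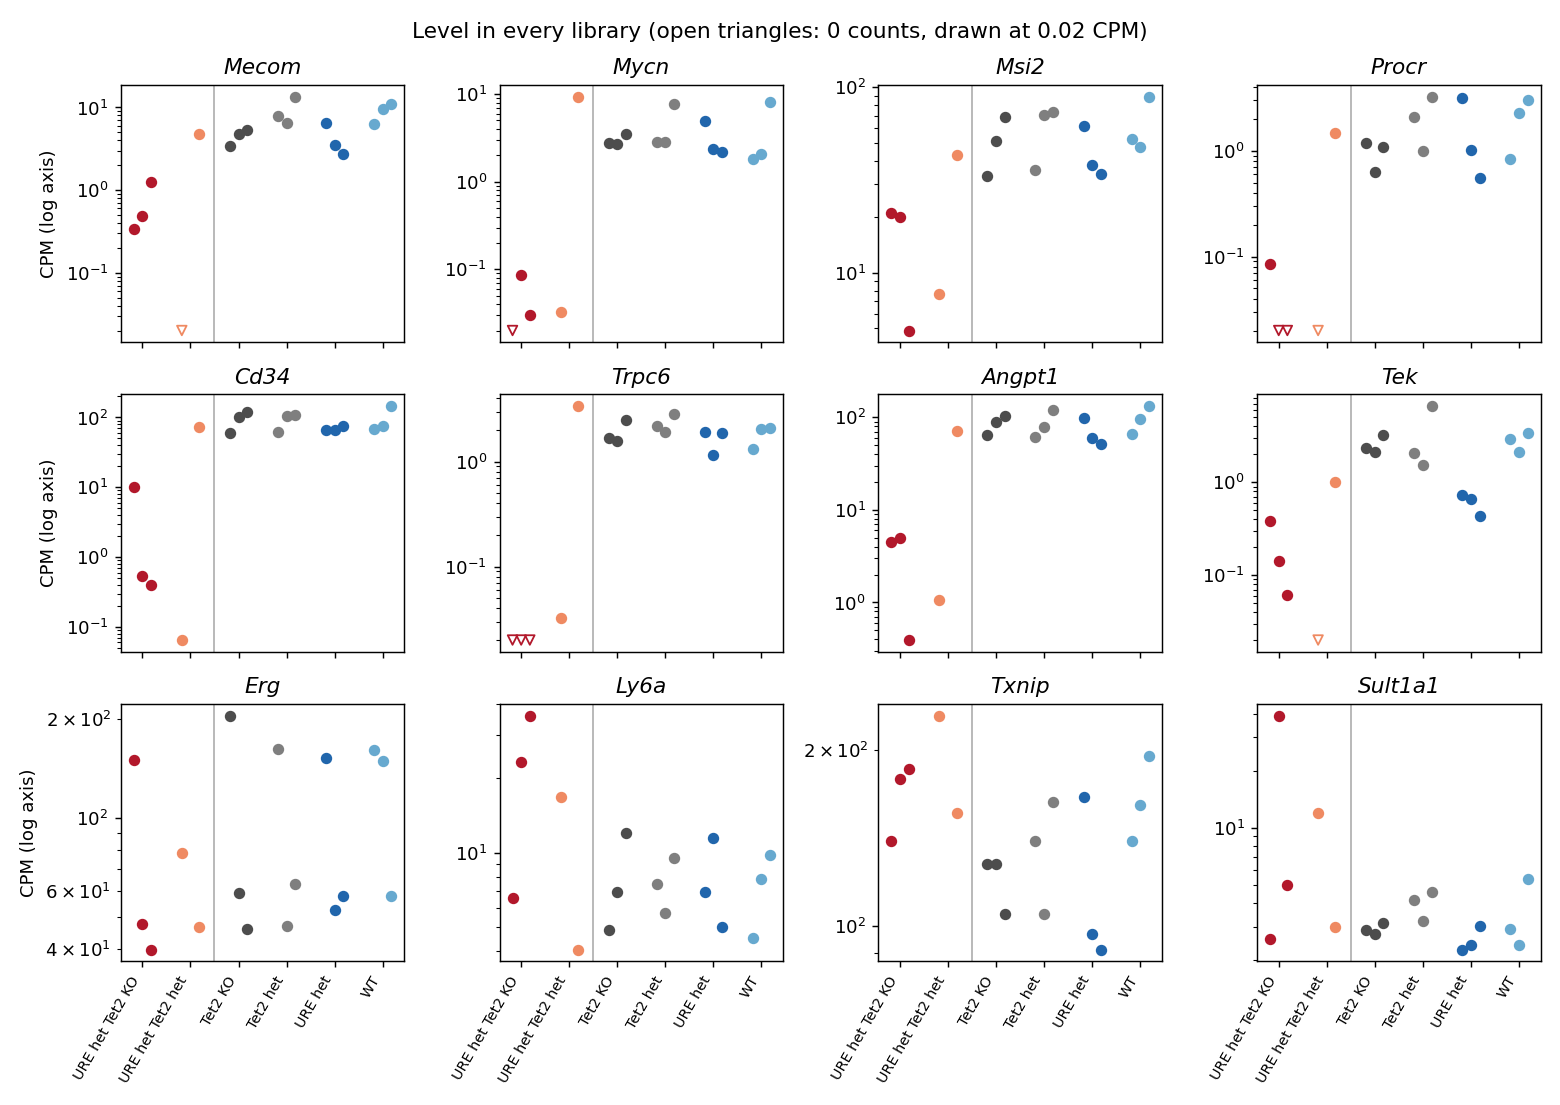
Levels of 12 of the genes in every library, in CPM on a log axis, by genotype with the AML genotypes left of the vertical line. Points are libraries and open triangles are libraries with 0 counts. In Mecom, Mycn, Msi2, Procr, Cd34, Trpc6 and Angpt1 URE het Tet2 het replicate 2 lies among or above the Normal points and the other 4 AML libraries below them, whereas Erg, Ly6a, Txnip and Sult1a1 do not show that split.

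In the angiopoietin pathway the ligand Angpt1 and the receptor Tek fell and the co-receptor Tie1 did not pass. Angpt1 (ENSMUSG00000022309.8, chromosome 15, 42424723 to 42676977), which signals through Tie2 and favours quiescence, had 4.52, 4.99 and 0.393 CPM in URE het Tet2 KO and 1.07 and 72.1 CPM in URE het Tet2 het libraries, against 51.2 to 132 CPM (median 83.9) in Normal libraries. The 4 low AML libraries were well apart from the lowest Normal library, and URE het Tet2 het replicate 2 was inside the Normal range. The log2 fold change was -2.95 ± 0.73 (adjusted p = 0.0196). Tek (ENSMUSG00000006386.15, chromosome 4, 94739289 to 94874976), the receptor Tie2, had 0.381, 0.143 and 0.0605 CPM in URE het Tet2 KO and 0 and 1.02 CPM in URE het Tet2 het libraries, against 0.433 to 6.61 CPM (median 2.13) in Normal libraries (-2.64 ± 0.67, adjusted p = 0.0219). The 3 lowest Normal libraries for Tek were those of URE het. Tie1, the related receptor without a bound ligand of its own, had 1.10, 5.79 and 1.42 CPM in URE het Tet2 KO and 0.0325 and 10.3 CPM in URE het Tet2 het libraries, against 2.62 to 9.75 CPM in Normal libraries (-0.52 ± 0.62, adjusted p = 0.655). For Tie1, 3 AML libraries were below and 1 above the Normal range.

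Of the 5 intracellular proteins, Ndn fell and Sult1a1 rose. Sult1a1 (chromosome 7, 126672865 to 126676432), a phenol sulfotransferase, had 2.58, 39.0 and 4.96 CPM in URE het Tet2 KO and 11.9 and 2.97 CPM in URE het Tet2 het libraries, against 2.27 to 5.38 CPM (median 2.97) in Normal libraries. The rise of 3.35-fold (log2 fold change 1.74 ± 0.46, adjusted p = 0.0252) came from 2 AML libraries above the Normal range, with the other 3 inside it. Ndn, the growth suppressor necdin found in quiescent stem cells, was at 0 counts in 4 AML libraries and at 0.234 CPM in URE het Tet2 het replicate 2, against 0.0309 to 0.943 CPM (median 0.371) in Normal libraries, where it had 1 to 20 counts. Its fitted log2 fold change of -3.97 ± 1.09 (adjusted p = 0.0355) rests on few counts, and its level in URE het Tet2 KO was at least 10.4-fold lower than in Normal from 3 counts over the group.

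Fgd5, an exchange factor for CDC42 whose locus is used to mark stem cells, had 0.465, 0.0573 and 0.0907 CPM in URE het Tet2 KO and 0.0976 and 1.74 CPM in URE het Tet2 het libraries, against 0.573 to 2.75 CPM in Normal libraries (-1.61 ± 0.64, adjusted p = 0.123). Txnip, an inhibitor of thioredoxin, stood at 140 to 229 CPM in AML and 91.3 to 196 CPM in Normal libraries (0.43 ± 0.17, adjusted p = 0.121). Ctnnal1, a relative of alpha-catenin, stood at 1.82 to 5.62 CPM in AML and 2.60 to 6.29 CPM in Normal libraries (-0.13 ± 0.27, adjusted p = 0.822). Per kilobase of exon, Txnip had the highest level of the 32 genes, 56.9 ± 10.9 CPM per kb in AML (SD, n = 5) and 43.2 ± 10.3 CPM per kb in Normal libraries (n = 12). Trpc6, at 0.135 ± 0.297 CPM per kb in AML and 0.379 ± 0.0924 CPM per kb in Normal libraries, was among the rarer.

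**Figure D4:**
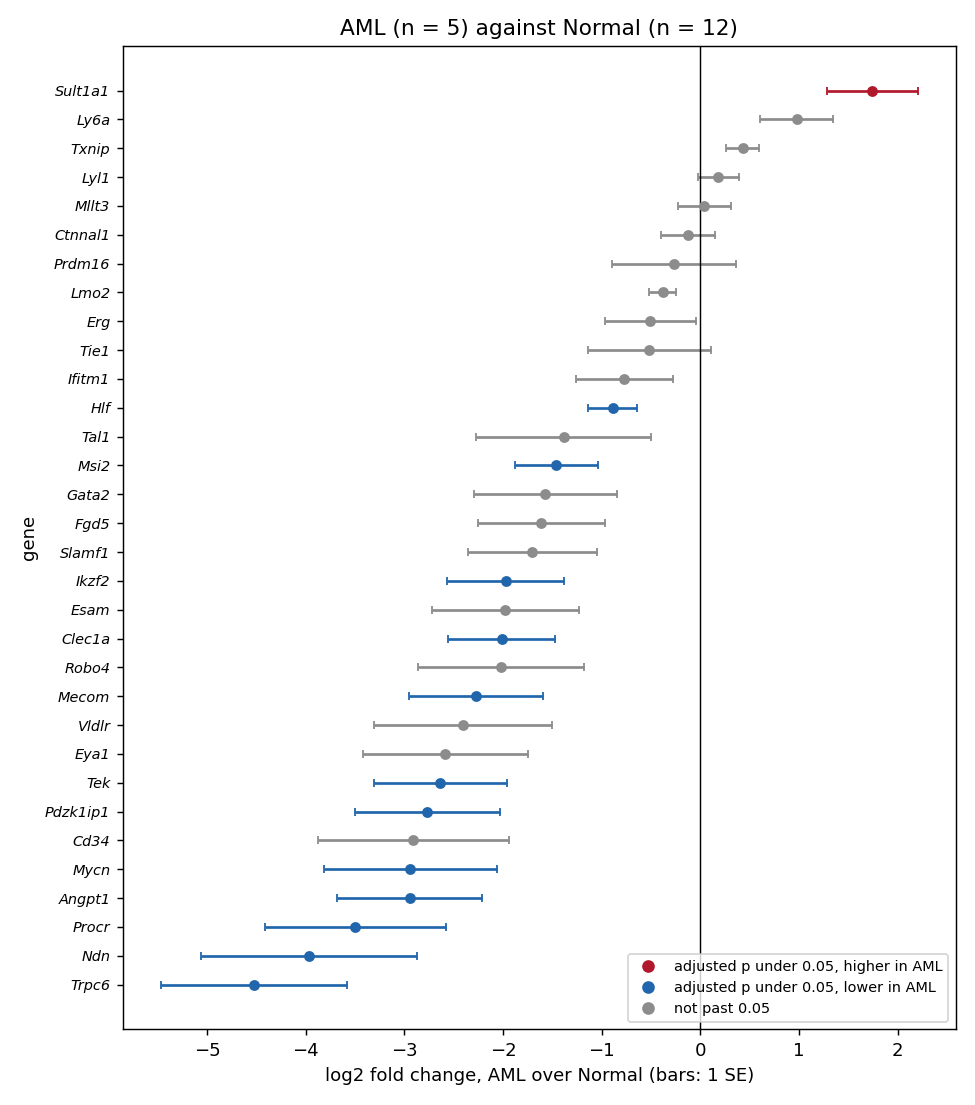
Log2 fold change of AML over Normal for the 32 genes, ordered by size, with bars of 1 SE; blue and red points passed an adjusted p of 0.05 and grey points did not. The estimates run from -4.53 for Trpc6 to 1.74 for Sult1a1, and 27 of the 32 are below 0.

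The number of calls depended on single libraries. Without URE het Tet2 het replicate 2, 26 of the 32 members passed, 24 lower and 2 higher (Ly6a and Sult1a1), where 18.1% of all genes passed, and the 6 that did not were Lyl1, Erg, Mllt3, Ifitm1, Txnip and Ctnnal1. The median log2 fold change of the members was then -4.06. Without URE het Tet2 KO replicate 1 the count was 19 (20.1% of all genes). Leaving out URE het Tet2 KO replicate 2 or 3 gave 4 each (6.21% and 6.52%), URE het Tet2 het replicate 1 gave 6 (3.99%), and leaving out WT replicate 3, Tet2 het replicate 3 or Tet2 KO replicate 3 gave 8 each (9.30%, 8.29% and 8.74%). Where a URE het Tet2 het library is left out, the lone library of that genotype is assumed to vary like the other groups. Trpc6 and Angpt1 passed in all 17 omissions, with adjusted p from 2.87e-05 to 0.0259 and from 0.000317 to 0.0327. Tek did not pass without URE het Tet2 KO replicate 2 (adjusted p = 0.0521) or 3 (0.0519). Sex could be read from the counts of 15 libraries, and both libraries where it could not, replicate 2 of URE het Tet2 KO and replicate 1 of URE het Tet2 het, are AML. The 3 AML libraries left, with URE het Tet2 het replicate 2 among them, all read as Xist, against 5 of the 12 Normal libraries. In those 15 libraries Trpc6 alone passed with a term for sex (0.214% of all genes), and Ikzf2, Trpc6 and Angpt1 passed with no such term (2.90%).

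Without URE het Tet2 het replicate 2, 11 of the 13 called fold changes moved by more than 1.5 times. On the log2 scale Mecom was then at -6.88, Mycn at -6.45, Ikzf2 at -4.61, Msi2 at -2.33, Procr at -7.26 and Clec1a at -2.66. Pdzk1ip1 was at -6.06, Trpc6 at -7.29, Angpt1 at -5.50, Tek at -6.15 and Ndn at -6.43. Members that had not passed moved too, Gata2 to -6.83, Cd34 to -7.45 and Tie1 to -4.10. The lone URE het Tet2 het library of that fit had 0 counts in 9 members. Mecom, Procr, Pdzk1ip1, Tek, Ndn and Gata2 were among them, and the sizes of their fold changes depend on the prior count. That of Trpc6 does too, with 0 counts in URE het Tet2 KO and 1 count in that library. Among the called members, other omissions moved the fold change that far for Procr (-4.89) and Pdzk1ip1 (-3.48) without URE het Tet2 KO replicate 1, for Mycn (-3.54) and Sult1a1 (0.70) without URE het Tet2 KO replicate 2, and for Sult1a1 (1.08) on omission of URE het Tet2 het replicate 1.

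Procr missed the threshold when URE het Tet2 het replicate 1 (adjusted p = 0.0528) or URE het Tet2 KO replicate 2 (0.0623) or 3 (0.0617) was left out, and Pdzk1ip1 was not called without the same libraries (0.0534, 0.0590 and 0.0646). Hlf missed it on omission of URE het Tet2 het replicate 1 (0.160) or URE het Tet2 KO replicate 3 (0.0707), as did Clec1a (0.131 and 0.0541). Sult1a1 missed it on omission of URE het Tet2 het replicate 1 (0.242) or URE het Tet2 KO replicate 2 (0.207). The calls of 5 members lay close to the threshold. Mecom kept its call in 4 of 17 omissions, those of URE het Tet2 KO replicates 1 and 3 and of either URE het Tet2 het library, with adjusted p of at most 0.0912. Mycn kept it in 2, the URE het Tet2 het libraries, and Ikzf2 in 3, those and URE het Tet2 KO replicate 1 (adjusted p of at most 0.0982 and 0.0936). Msi2 and Ndn kept theirs in 8 each, with adjusted p of at most 0.147 and 0.0950.

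**Figure D5:**
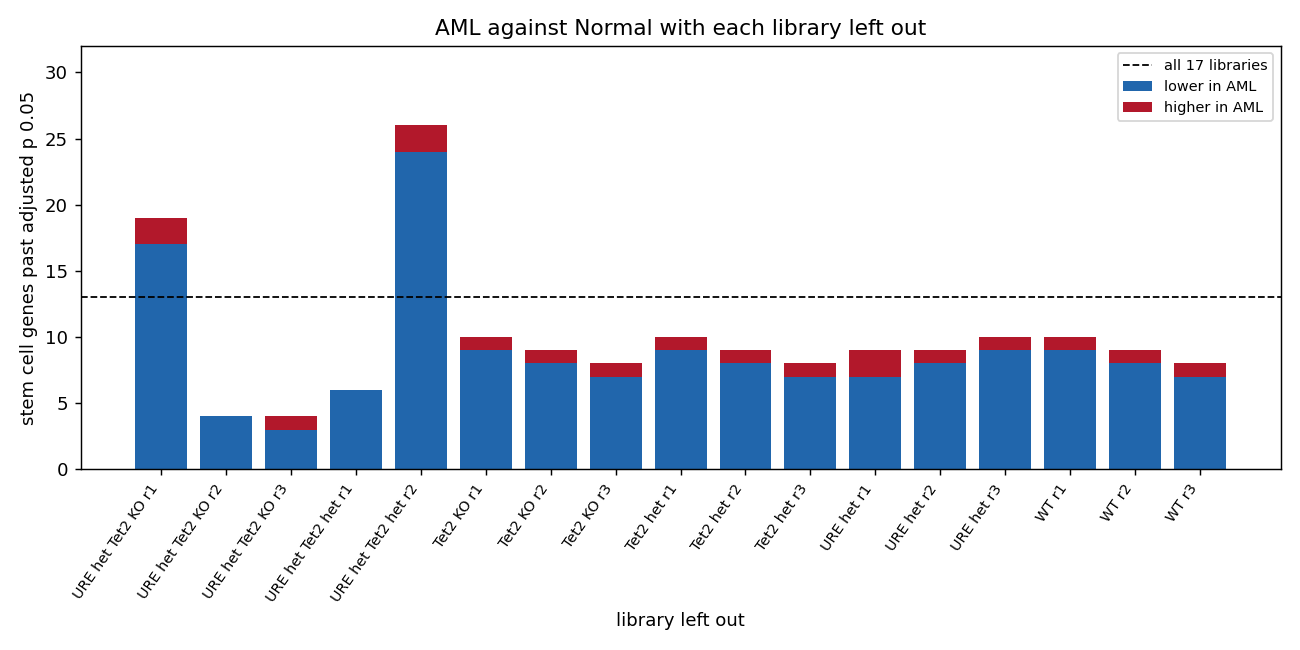
Number of the 32 genes past an adjusted p of 0.05 in AML against Normal when each of the 17 libraries is left out in turn, split into lower in AML (blue) and higher in AML (red), with the count from all libraries, 13, as a dashed line. The count runs from 4 to 26 and is highest without URE het Tet2 het replicate 2.

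The title numbers of the libraries, 1 to 7 and 8 to 17, also went with some of these genes; the labels do not call the ranges a batch, and each holds every genotype. In the 12 Normal libraries 6 of the 32 members differed between the later and the earlier range (edgeR adjusted p under 0.05), where 36.4% of 18282 genes did. Erg averaged 54.8 CPM in the 7 later and 166 CPM in the 5 earlier Normal libraries, a log2 difference of -1.60 ± 0.11 (adjusted p = 1.57e-06), and Lyl1 differed by -0.52 ± 0.08 (0.000301). Cd34 was higher in the later range (102.9 against 66.4 CPM, 0.69 ± 0.13, adjusted p = 0.000952), and Tal1, Clec1a and Ctnnal1 were higher as well. In AML against Normal 15 members passed with the range as a term, 14 lower and 1 higher (18.4% of all genes). Erg (log2 fold change -0.43, edgeR adjusted p = 0.0472) and Slamf1 (-1.96, 0.0326), not called without the term, were among the lower. Within libraries 8 to 17, which hold 3 of the AML libraries, 18 passed, where 20.9% of all genes did, 17 lower and 1 higher, Lyl1 (log2 fold change 0.64, adjusted p = 0.0229); there Tal1 was at -3.40 (0.000134) and Cd34 at -4.15 (2.34e-05), while Hlf, Msi2 and Sult1a1 did not pass. A value within 1 to 7 is not given, because each mutant genotype has 1 library there.

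Markers of other cells that the gate could hold also differed between AML and Normal libraries, and their part in the falls of the stem cell genes was not tested. Of 8 lymphoid progenitor markers 7 fell in AML, among them Rag1, Rag2, Ebf1 and Pax5, with a summed level of 56.2 to 105 CPM in AML and 57.2 to 145 CPM in Normal libraries; Rag1, a recombinase, was at 0 counts in 4 AML libraries. Without Notch1, the 1 lymphoid marker that did not fall, the sum was 0.592, 0.688 and 1.03 CPM in URE het Tet2 KO and 0.650 and 32.1 CPM in URE het Tet2 het libraries, against 11.3 to 60.3 CPM in Normal libraries. Of 10 erythroid and megakaryocyte markers Gfi1b and Gp9 fell, and the sum was 2.33 to 25.6 CPM in AML and 13 to 38.5 CPM in Normal libraries. Of 8 mast cell and basophil markers, a list that also holds Gata2, 3 fell (Ms4a2, Prss34 and Fcer1a) and Mitf rose, and the sum was 37.2 to 158 CPM in AML and 164 to 545 CPM in Normal libraries. Of 10 granulocyte-monocyte progenitor markers Gfi1, Cebpa and Ctsg rose and 0 fell, with a sum of 6212 to 11008 CPM in AML and 3056 to 9120 CPM in Normal libraries. The sums of the mast cell and basophil markers did not overlap between AML and Normal libraries, and the other 3 did.

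Several members, among them Tek, Tie1, Robo4, Esam and Cd34, are also transcribed in endothelium. Cdh5, the cadherin that defines endothelium, was at 0 in all 5 AML libraries and at 0 to 0.677 CPM in Normal libraries, and of 9 endothelial markers tested Cdh5 and Emcn fell and Flt1 rose (6.52 to 357 CPM in AML, 1.77 to 7.07 CPM in Normal libraries). The endothelial sum was 37.5 to 384 CPM in AML and 41.6 to 67 CPM in Normal libraries. Of 6 stromal markers tested Kitl and Lepr rose (sum 6.81 to 37.3 CPM in AML, 7.75 to 16 CPM in Normal libraries), and of 12 interferon-stimulated genes 0 passed.

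Other genes of stem cells and multipotent progenitors were taken from a separate list. Of 37 tested, 6 fell and 1 rose in AML, a median log2 fold change of -0.43, and the summed level was 1440 to 2013 CPM in AML and 1579 to 2527 CPM in Normal libraries. Tgm2, a transglutaminase, stood at 0.0605 to 0.318 CPM in AML and 0.606 to 4.71 CPM in Normal libraries and Cd27, a costimulatory receptor, at 2.24 to 33.1 CPM in AML and 14.8 to 98.8 CPM in Normal libraries; Ptger4, a prostaglandin receptor, was lower by 1.00 ± 0.24 on the log2 scale. Cdkn1c, which encodes the CDK inhibitor p57, was the gene that rose (0.828 to 5.05 CPM in AML, 0.198 to 1.11 CPM in Normal libraries; log2 fold change 2.12 ± 0.35, adjusted p = 0.00235). Of 6 surface markers of multipotent progenitors, Cd27 fell and 0 rose.

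What the URE deletion adds to loss of both Tet2 copies was read from URE het Tet2 KO set against Tet2 KO. Trpc6 was the 1 member of 32 that passed, lower, where 0.977% of all genes passed (0.581% lower and 0.396% higher), and the median log2 fold change over the members was -2.62, against 0.03 for all genes. Trpc6 had 0 counts in each URE het Tet2 KO library and 1.68, 1.56 and 2.47 CPM in Tet2 KO libraries, at least 59.2-fold lower from 3 counts over the group (adjusted p = 0.0338). In 23 of the 32 members all 3 URE het Tet2 KO libraries were below all 3 Tet2 KO libraries, where 9.59% of all genes showed that order, and Txnip was the 1 member with all of them above (8.35% of all genes). At an unadjusted p under 0.05, 23 members and 3015 genes passed.

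Angpt1 lay at -4.71 ± 1.07 on the log2 scale in this contrast (adjusted p = 0.0506), Mycn at -6.0 ± 1.41 (0.0571), Pdzk1ip1 at -4.70 ± 1.13 (0.0591) and Tek at -3.76 ± 0.98 (0.0748). The count was 17 with DESeq2 (6.07% of all genes) and 25 with limma voom (18.4%), 15 on omission of URE het Tet2 KO replicate 1 (9.05%) and 17 without either URE het Tet2 het library, whose group is not in the contrast but shares the spread (4.58% without replicate 1 and 4.65% without replicate 2). It was 0 without URE het Tet2 KO replicate 2 or 3, any Tet2 KO library, WT replicate 2 or URE het replicate 2. In those omissions 0.0152% to 0.166% of all genes passed.

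URE het Tet2 KO against URE het asked what loss of both Tet2 copies adds to the URE deletion. Again Trpc6 alone passed (0 counts in each URE het Tet2 KO library, against 1.91, 1.16 and 1.88 CPM in URE het libraries, at least 50.4-fold lower in URE het Tet2 KO, adjusted p = 0.0433), where 0.356% of all genes passed (0.216% lower), and the median of the members was -2.27. In 20 members all URE het Tet2 KO libraries were below all URE het libraries (9.63% of all genes). Mycn lay at -6.08 ± 1.41 (adjusted p = 0.0694), Angpt1 at -4.42 ± 1.06 (0.0734) and Procr at -5.88 ± 1.45 (0.0812). Tek, whose 3 lowest Normal libraries were those of URE het, lay at -1.69 ± 0.96 (0.448). The count was 12 with DESeq2 (5.08% of all genes), 19 with limma voom (17.1%), 12 without URE het Tet2 KO replicate 1 (9.0%) or either URE het Tet2 het library (3.36% and 3.38%), and 0 in each of the other 14 omissions. In those 14 omissions 0% to 0.186% of all genes passed. The contrasts with Tet2 KO and with URE het share the URE het Tet2 KO libraries. Their members' medians were the same with Trpc6 and Ndn, which were at 0 in that group, set to their bounds.

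URE het Tet2 het against Tet2 het gave 0 members and 0 of all genes past 0.05 in edgeR; at an unadjusted p under 0.05 there were 3 members, Hlf, Clec1a and Tek, and 2652 genes, and DESeq2 and limma voom also called 0 members. The 2 URE het Tet2 het libraries stood far apart. Tek had 0 and 1.02 CPM in URE het Tet2 het and 2.08, 1.54 and 6.61 CPM in Tet2 het libraries (log2 fold change -2.69 ± 1.04, adjusted p = 0.283), and Mecom, Hlf, Prdm16 and Tek were the 4 members below all Tet2 het libraries in both (12.3% of all genes). Without URE het Tet2 het replicate 2, 16 members and 5.79% of all genes passed, in a fit where the lone URE het Tet2 het library is assumed to vary like the other groups.

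Between the compound mutants, URE het Tet2 KO against URE het Tet2 het, 0 members passed, where 0.0100% of all genes did, although 16 members and 2344 genes had an unadjusted p under 0.05 and DESeq2 called 5 members (1.68% of all genes). The median was -1.66. Trpc6 and Lmo2 were the 2 members lower in all URE het Tet2 KO than in both URE het Tet2 het libraries (9.68% of all genes). For Trpc6 that order rests on 0 counts against 1 count in URE het Tet2 het replicate 1, which this depth does not separate, and Lmo2 lay at -0.75 ± 0.23 (adjusted p = 0.266). The direction hung on URE het Tet2 het replicate 2: without it the median was 1.41 and 1 member passed (0.299% of all genes), and without URE het Tet2 het replicate 1, 14 passed (4.79%). In both fits the lone URE het Tet2 het library is assumed to vary like the other groups. Without replicate 2 that library had 0 counts in 9 members, and the sizes of their fold changes depend on the prior count.

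The single mutants were set against WT to ask what each lesion does alone. In edgeR 0 members and 0 of all genes passed in each of the 3 contrasts, and DESeq2, limma voom and every omission also called 0 members. In URE het against WT 1 member and 753 genes had an unadjusted p under 0.05, in Tet2 het 1 and 585, and in Tet2 KO 0 and 512. Of all genes DESeq2 called 0.0351% in URE het, 0.00501% in Tet2 het and 0.0601% in Tet2 KO. With limma voom these shares were 0.421%, 0% and 0.451%. URE het had the lowest median, -0.47, and 4 members (Mllt3, Eya1, Vldlr and Tek) below all WT libraries, as did 6.80% of all genes. Tek had 0.733, 0.664 and 0.433 CPM in URE het and 2.96, 2.12 and 3.36 CPM in WT libraries. The groups did not overlap, and the log2 fold change of -2.20 ± 0.88 did not pass (adjusted p = 1).

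Vldlr had 6.59, 2.39 and 1.73 CPM in URE het and 10.4, 9.02 and 25.6 CPM in WT libraries (-2.07 ± 1.19, adjusted p = 1). Lmo2 had 59.2, 71.5 and 79.9 CPM in Tet2 het and 94.2 to 102 CPM in WT libraries, a separation without overlap that did not pass (-0.49 ± 0.20, adjusted p = 1), and it was the 1 member with all Tet2 het below all WT libraries (4.98% of all genes). In Tet2 KO, 5 members (Mecom, Gata2, Lmo2, Eya1 and Txnip) lay below and Tie1 above all WT libraries, where 5.34% and 4.18% of all genes did. Tie1 had 8.32, 9.75 and 9.59 CPM in Tet2 KO and 4.63, 3.51 and 5.18 CPM in WT libraries (1.05 ± 0.92, adjusted p = 1). Median log2 fold changes were -0.04 in Tet2 het and -0.20 in Tet2 KO. WT replicate 3 lay above the other 11 Normal libraries in 12 members and Tet2 het replicate 3 in 13, and URE het replicates 2 and 3 lay below in 6 and 10. The shares of all genes that did so were not computed, so these counts are not read as particular to the members.

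The interaction asked whether the URE deletion acts differently with Tet2 KO than alone. In edgeR 0 members and 0 of all genes passed, with 11 members and 1618 genes at an unadjusted p under 0.05. Trpc6 had the smallest adjusted p of the members (log2 difference of effects -8.77 ± 1.85, adjusted p = 0.293), followed by Mycn (-5.67 ± 1.72, 0.448) and Angpt1 (-4.23 ± 1.35, 0.455). Because Trpc6 was at 0 counts in each URE het Tet2 KO library, the size of its value depends on the prior count. That of Mycn rests on 0, 3 and 1 counts in URE het Tet2 KO. DESeq2 called 2 members (0.757% of all genes) and limma voom 11 (9.15%), and edgeR 3 without either URE het Tet2 het library (0.316% and 0.304%).

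Further features, whose names join a gene's identifier to the suffix enh, were present for 27 of the 32 members, 190 features in all; their coordinates and meaning are not given in the sources used here. For the 18 members with at least 100 such counts, the summed level was below the Normal range in 10, 9 and 8 members in URE het Tet2 KO replicates 1, 2 and 3, where 11.3%, 20.8% and 16.1% of the 6513 tested genes with as many enh counts were below. In URE het Tet2 het replicate 1 it was below in 11 and above in 1 (10.9% and 21.1% of those genes), and in URE het Tet2 het replicate 2 below in 0 and above in 4 (2.46% and 27.0%). The enh features held 3.32%, 2.71% and 2.93% of the counts in URE het Tet2 KO and 4.86% and 5.71% in URE het Tet2 het libraries, against 2.63% to 5.41% in Normal libraries, and the part of that share in these counts was not tested.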

How the data were processed

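RNA was sequenced from 17 libraries of sorted marrow cells. The authors deposited 1 table of raw read counts, made with STAR on GRCm38 per the submitters' processing notes. The counting tool, annotation release and strand setting are not given in the sources used here, so a gene and an antisense partner (Mecom, Lyl1, Prdm16, Ikzf2, Cd34, Angpt1, Txnip and Sult1a1 have one) may share reads. Features marked enh, 2.63% to 5.71% of a library's counts, were kept out of library sizes and tests.

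Counts were filtered with filterByExpr (minimum count 10, minimum total 15) and fitted with edgeR 4.0.16 (R 4.3.3), with 6 genotype means, TMM scaling and the robust quasi-likelihood F test. P-values were adjusted by Benjamini-Hochberg over 19951 genes, with a threshold of 0.05. AML against Normal is the mean of 2 compound groups minus the mean of 4 others. Each SE was derived from the fold change and its F statistic. The fit was also run on simulated counts with the same spread for every gene and the same fold in every AML library. Those settings do not cover an AML library that departs from the rest, so no conclusion is drawn for that case. Python 3.11.15 and pandas 2.3.3 were used for promoters and figures.

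Alternatives were DESeq2 size factors, no low-count filter, DESeq2 1.42.0, limma 3.58.1 voom with quality weights, a title-range term, libraries 8 to 17 alone, a sex term and its 15 libraries with no term, and omission of each library. Floors of 3 counts cover counting error only. All 32 members are named, with up to 4 called genes by smallest p of each other list. Members and lists were chosen with earlier results of these data known.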

Additional observations from a re-analysis of the deposited data

Results flagged for a closer look

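In 17 of the 32 genes the highest AML library stood apart from the other 4 by Dixon's criterion at 95%, a gap over 0.71 of the range from lowest to highest. The criterion was applied to CPM with no log transform, over 2 pooled genotypes, and 13.2% of the 19951 genes tested met it. In 16 of the 17 that library was URE het Tet2 het replicate 2, as it was in 7.05% of all genes. It had 4.82 CPM of Mecom, 11.8 of Gata2, 9.36 of Mycn, 39.2 of Ikzf2 and 7.35 of Eya1. Among surface proteins it had 1.47 CPM of Procr, 1.10 of Slamf1, 73.6 of Cd34, 2.19 of Esam, 3.57 of Robo4, 9.64 of Vldlr, 0.743 of Pdzk1ip1 and 3.38 of Trpc6. It also had 72.1 CPM of Angpt1, 1.74 of Fgd5 and 0.234 of Ndn. The remaining gene was Sult1a1, where URE het Tet2 KO replicate 2 stood at 39.0 CPM and the next library at 11.9 CPM.

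The enh features lay above the Normal range for 4 of 18 genes in URE het Tet2 het replicate 2. Of the 6513 genes with as many enh counts, 27.0% did so. Their summed level was 1.40 CPM for Lyl1 (highest Normal library 0.895), 12.2 for Cd34 (8.59), 3.04 for Trpc6 (2.83) and 8.03 for Sult1a1 (6.25). In URE het Tet2 het replicate 1 those of Ly6a summed to 6.34 CPM (highest Normal library 2.14). Ly6a was the 1 of the 18 above the range there, where 21.1% of the 6513 genes were. These counts are not read as particular to the members.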

How the results depend on the processing

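In AML against Normal the count of 13 members became 8 with no filter on low counts, 21 with DESeq2 and 1 with the sex term, and ran from 4 to 26 over omissions; it was 13 with DESeq2 size factors, 12 with limma voom, 15 with the title-range term and 18 within libraries 8 to 17. The shares of all genes called were 5.75% with no filter, 16.3% with DESeq2 and 0.214% with the sex term. The sex term's fit also leaves out replicate 2 of URE het Tet2 KO and replicate 1 of URE het Tet2 het, and in the same 15 libraries with no term, a fit chosen after seeing the data, the count was 3 (2.90% of all genes). DESeq2 size factors called 11.1% of all genes and limma voom 7.81%. Only 6 of the 12 calls of limma voom were shared with edgeR. The count in URE het Tet2 KO against Tet2 KO (1) became 2 with DESeq2 size factors, 2 with no filter, 17 with DESeq2, 25 with limma voom and 3 with the range term, and ran from 0 to 17 over omissions. In URE het Tet2 KO against URE het (1) it became 12 with DESeq2, 19 with limma voom and 2 with the range term, and ran from 0 to 12 over omissions. It ran from 0 to 16 over omissions in URE het Tet2 het against Tet2 het (0), and from 0 to 14 in URE het Tet2 KO against URE het Tet2 het (0), where DESeq2 gave 5. The interaction (0) had 2 with DESeq2, 11 with limma voom and 0 to 3 over omissions. For URE het Tet2 KO against Tet2 KO the shares of all genes called were 1.02% with DESeq2 size factors and 0.551% with no filter. They were 6.07% with DESeq2, 18.4% with limma voom and 2.08% with the range term. For URE het Tet2 KO against URE het they were 5.08% with DESeq2, 17.1% with limma voom and 1.29% with the range term. The single mutants against WT had 0 members in every alternative and omission run. The cause was not tested for any of these.

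Directions turned in AML against Normal for Prdm16 (0.49), Mllt3 (-0.019) and Tie1 (0.12) within libraries 8 to 17, and in the 15 libraries of the sex term for Mllt3 (-0.42), Ifitm1 (0.10) and Ctnnal1 (0.18) with the term and Mllt3 (-0.38), Prdm16 (0.040) and Ctnnal1 (0.0029) with no term. Over omissions log2 fold changes ran from -0.21 to 0.42 for Lyl1, -4.00 to 0.21 for Prdm16, -0.19 to 0.25 for Mllt3 and -0.61 to 0.15 for Ctnnal1. In URE het Tet2 KO against URE het Tet2 het 20 of the 32 members turned positive without URE het Tet2 het replicate 2. Of the 16 with an unadjusted p under 0.05, 12 turned, and over omissions these ran from -4.08 to 7.41 for Gata2, -7.74 to 0.37 for Mycn, -3.46 to 2.77 for Ikzf2, -5.89 to 3.54 for Eya1, -7.59 to 2.72 for Procr, -6.28 to 5.73 for Cd34, -5.95 to 0.73 for Esam, -5.77 to 4.38 for Robo4, -6.28 to 6.81 for Vldlr, -4.38 to 3.62 for Pdzk1ip1, -4.45 to 1.63 for Angpt1 and -3.60 to 0.97 for Fgd5. The lone URE het Tet2 het library behind the positive ends had 0 counts of Gata2, Procr, Robo4, Vldlr and Pdzk1ip1. It had 1 count of Mycn and of Eya1 and 2 of Cd34. For Procr, 2, 0 and 0 counts in URE het Tet2 KO stood against 0. The sizes of these positive ends therefore depend on the prior count.

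Chosen after seeing the data, DESeq2 size factors put URE het Tet2 het replicate 2 below the Normal range in 3 members and library totals in 0, with 10 above under library totals. The share of all genes outside the range was not computed under either scaling. These counts therefore describe the scaling and are not read as a result about the members. No paired analysis was possible because the labels carry no replicate numbers shared across groups. At this depth a level under 3 counts cannot be told from 0.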
